A study of Mus musculus with 2 samples.

Results

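The nuclear-encoded genes of the mitochondrial respiratory chain were examined in single-nucleus RNA-seq of mouse hearts with and without a PD-1 inhibitor. Members were chosen by symbol, as the Nduf genes of complex I, the Sdh genes of complex II, the Uqcr genes and Cyc1 of complex III, the Cox4 to Cox8 genes of complex IV and the Atp5 genes of complex V. They also needed at least 50 UMIs in both libraries together, where a UMI is 1 counted RNA molecule. The rule gave 81 genes of 32589, and 14524 genes of all kinds reached the same minimum. Complex I held 36 members, complex II 4, complex III 9, complex IV 14 and complex V 18. Of 85 genes whose symbols match, Cox7b2 had too few UMIs, Ndufa13 and Cox8c were listed at 0, and Ndufb1-ps was left out as a pseudogene symbol. Atp5o stood on 2 gene IDs, so its level is uncertain.

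Complexes I to IV pass electrons from NADH and succinate to oxygen, and complexes I, III and IV pump protons across the inner mitochondrial membrane. Complex V, the ATP synthase, uses the proton gradient to make ATP. Most subunits are encoded in the nucleus and a smaller core in mitochondrial DNA, and both kinds must be assembled together. Heart muscle is among the tissues richest in mitochondria. Several subunits of complex IV exist in paired forms, 1 for heart and skeletal muscle and 1 for other tissues, and further isoforms are known from pericytes, lung, testis and hypoxic cells.

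Male C57BL/6 mice, 8 weeks old at the start of treatment, were the source of the hearts. In the paper's mouse model they were sacrificed on day 28. The PD-1 inhibitor group received 5 mg/kg of an anti-mouse PD-1 antibody into the peritoneal cavity on days 1 and 14 of a 28-day cycle, and the Control group received PBS on the same days. Each group is 1 library, and the number of hearts behind each is not given in the sources used here. There is therefore no replicate, no test was made, and every interval below is a 95% interval for counting error only.

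The Control library held 10197 barcodes and 13177525 UMIs, and the PD-1 inhibitor library 7967 barcodes and 10875248 UMIs. After filters on genes, mitochondrial UMIs and doublets, 9522 and 7644 nuclei were kept, with median depths of 1012 and 1055 UMIs, and 48 barcodes occurred in both libraries. Clustering used neither the members nor the mitochondrially encoded genes and gave 21 clusters, of which 20 were named from marker genes as like 1 of 10 cell types. The EC markers summed to 9939 and 10113 CPM (UMIs per 1000000 UMIs of the cell type) in endothelial cells (ECs) and to 498 and 497 CPM in Fibroblasts. The markers of cardiomyocytes (CMs) summed to 65169 and 69181 CPM in CMs, but also to between 2957 and 5470 CPM in ECs, Fibroblasts, mural cells, mesothelial cells and the macrophage-like cells marked by Adgre1 and Csf1r (MPs). The MPs include cluster 13, of 171 and 95 nuclei, whose leading genes Cd209a, Clec9a and Flt3 are known from dendritic cells. UMIs of CM markers were thus counted in nuclei of all of these types, and values on this are given beside the results.

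The first question was how the members' levels differed between cell types. CMs held by far the most: their nuclei had 36786 CPM of member UMIs in the Control group and 51428 CPM in the PD-1 inhibitor group, against 8767 and 11405 CPM in ECs. The log2 ratio of CMs over ECs was 2.07 (2.05 to 2.09) in the Control group and 2.17 (2.16 to 2.19) in the PD-1 inhibitor group, or 4.20-fold and 4.51-fold. Members with at least 50 UMIs in the groups compared were counted, and a member was called higher where its level was at least 25% above the other and lower where it was at least 20% below. In the Control group 77 of 78 such members were called higher in CMs, against 23.9% of all genes, and in the PD-1 inhibitor group 76 of 78, against 22.5% of all genes. The 5 complexes stood close together, from a log2 ratio of 1.84 in complex II to 2.17 in complex III in the Control group, and from 1.96 in complex II to 2.28 in complex V in the PD-1 inhibitor group. Fibroblasts and MPs lay below ECs, at -0.29 and -0.34 in the Control group and at -0.33 and -0.43 in the PD-1 inhibitor group. Mesothelial cells lay above ECs in the Control group, at 0.15, and below them in the PD-1 inhibitor group, at -0.19.

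The members of complex IV spread more widely in this ratio than those of the other complexes. Cox6a2, the heart and muscle form of a complex IV subunit, stood highest, with a log2 ratio of CMs over ECs of 2.96 in the Control group and 2.85 in the PD-1 inhibitor group. Cox6a1, its counterpart in other tissues, was the only member with a ratio below 0 in both libraries among those with enough UMIs, at -0.22 and -0.43. Cox8a, another form of other tissues, stood at 0.92 and 0.64. In complex V, Atp5g1, which encodes the ring subunit c of the ATP synthase, stood at 2.51 and 2.71, while Atp5g2, a second gene for the same subunit, stood at 0.62 and 0.24. In complex III, Uqcrfs1, the Rieske iron-sulfur protein, stood at 2.55 and 2.64, and Uqcrb, an accessory subunit, lowest at 1.77 and 1.95. In complex II, Sdhb, the iron-sulfur subunit, stood at 2.31 and 2.40 and Sdha, the flavoprotein subunit, at 1.37 and 1.5. In complex I, Ndufb8, an accessory membrane-arm subunit, stood at 2.34 and 2.82 but had few UMIs in ECs, and Ndufs4, an accessory subunit of the matrix arm, was low at 1.14 and 1.41. The tissue forms thus lay at both ends of complex IV.

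**Figure D1:**
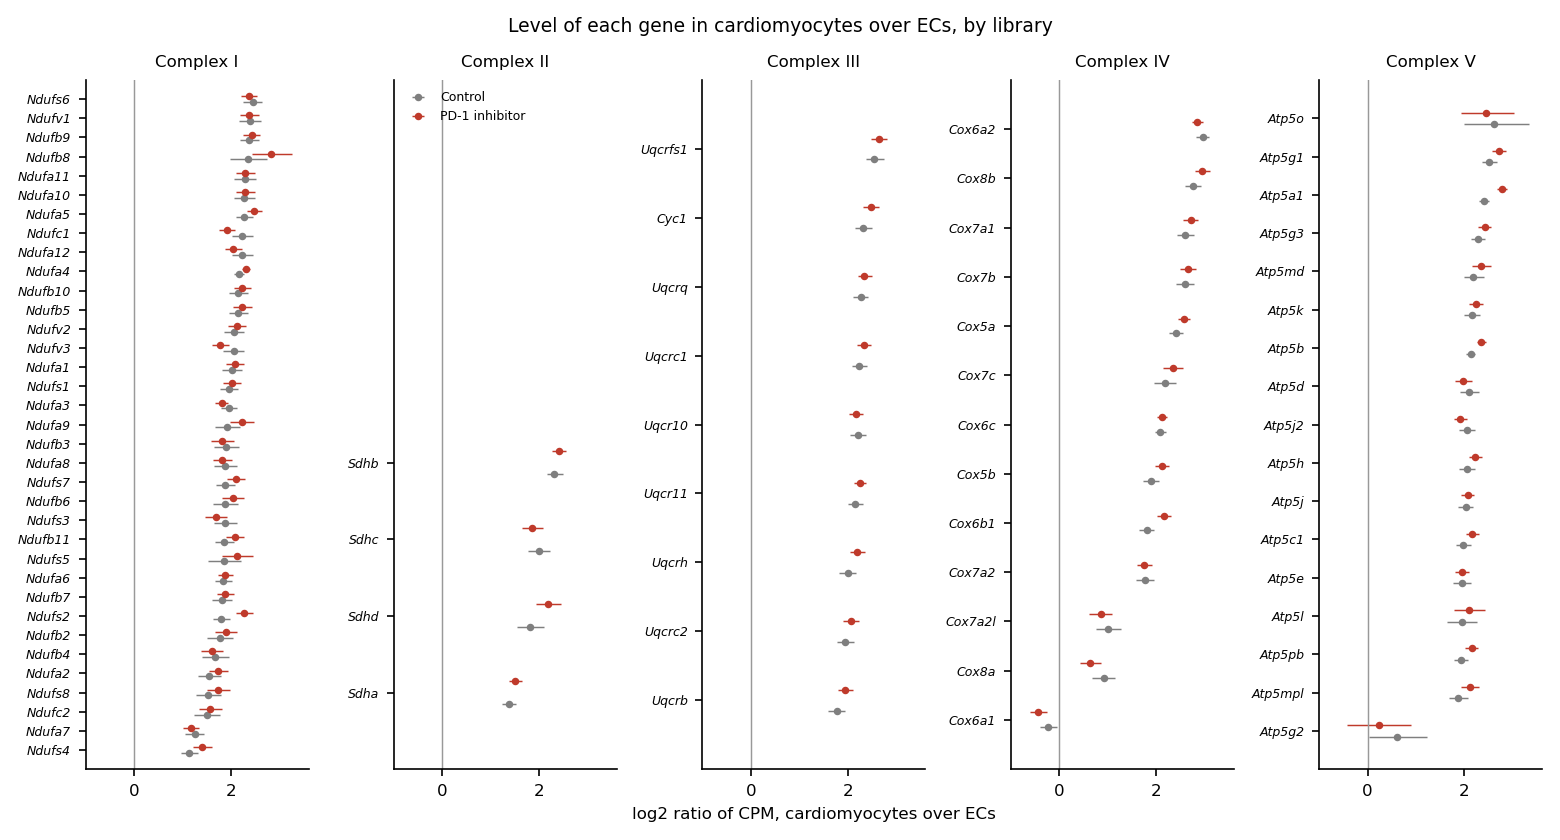
Log2 ratio of CPM in CMs over ECs (horizontal axis) for each member with at least 50 UMIs in both cell types together in each library, in 1 panel per complex. Grey points are the Control group, red points the PD-1 inhibitor group, and bars are 95% counting intervals. Nearly all points lie near 2, with Cox6a1 below 0 and Cox8a and Atp5g2 below 1 in both libraries.

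The CM nuclei were not uniform. Cluster 5, whose leading genes included the long non-coding gene Mir133a-1hg, had a median of 0.38% mitochondrial UMIs in the Control group and 0.71% in the PD-1 inhibitor group, and the nuclear RNA Malat1 made 11.5% and 12.3% of its UMIs. Cluster 6, led by Acta1 and Xirp2, had medians of 9.78% and 8.61% mitochondrial UMIs and 0.94% and 0.82% Malat1. Members made 1.63% and 2.09% of the UMIs in cluster 5 but 8.63% and 9.36% in cluster 6, and 3.03% and 5.30% in the small cluster 18, which carried the atrial genes Sln and Myl4. Cluster 6 held 36.2% (33.6 to 38.9) of the CM nuclei in the Control group and 45.1% (42.1 to 48.1) in the PD-1 inhibitor group. Without cluster 6, the log2 ratio of CMs over ECs was 0.93 in the Control group and 1.02 in the PD-1 inhibitor group, and with cluster 6 as the only CMs it was 3.30 and 3.04.

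**Figure D2:**
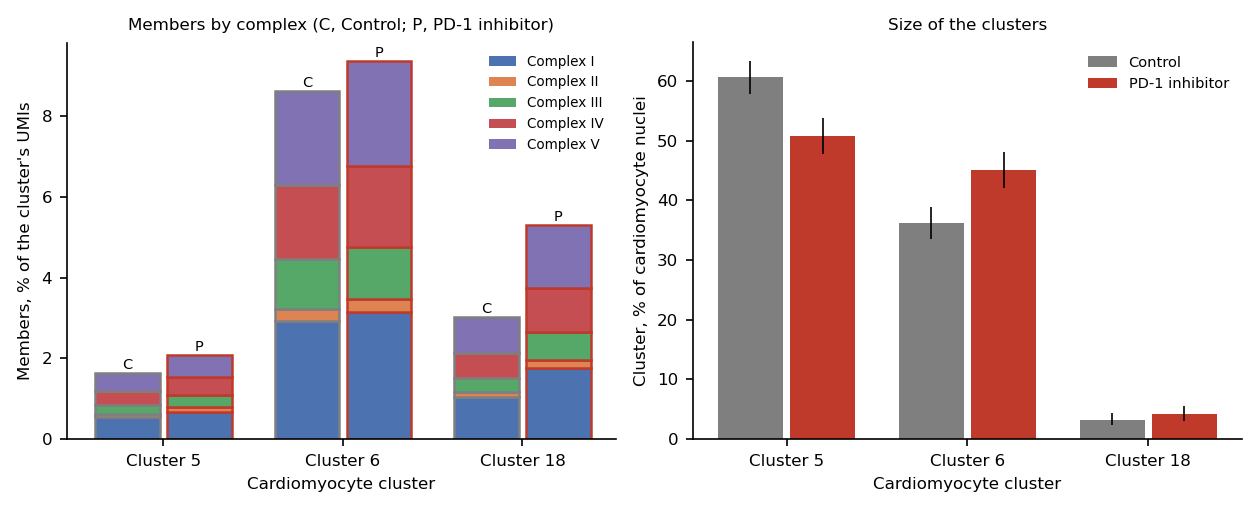
Left, members' UMIs as a percentage of all UMIs of each CM cluster (vertical axis), stacked by complex, with C for the Control group and P for the PD-1 inhibitor group. Right, each cluster as a percentage of CM nuclei, with 95% Clopper-Pearson intervals as bars. Cluster 6 has a member share of 8.63% and 9.36%, against 1.63% and 2.09% in cluster 5, and makes a larger part of the CM nuclei in the PD-1 inhibitor group.

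The second question was how the members differed between the libraries. In ECs, 52 of 78 members were called higher in the PD-1 inhibitor group, against 18.7% of all genes, and 0 were called lower, against 15.5% of all genes. Summed over members, the level in ECs was 8767 CPM in the Control group and 11405 CPM in the PD-1 inhibitor group, a log2 ratio of 0.38 (0.36 to 0.40), while the median of all genes was 0.01. In Fibroblasts, 47 of 78 members were higher, against 18.1% of all genes, and 1 was lower, against 15.5%, and the sums were 7186 and 9045 CPM, a log2 ratio of 0.33 (0.30 to 0.36). In MPs, 35 of 74 were higher, against 18.8%, and 1 was lower, against 20.9%, and the sums were 6929 and 8451 CPM, a log2 ratio of 0.29 (0.24 to 0.33). The ratio of sums was therefore above 0 by more than counting error in each of these types.

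In CMs, 63 of 78 members were higher, against 22.1% of all genes, and only Atp5g2 was lower, against 22.7%. The sums were 36786 and 51428 CPM, a log2 ratio of 0.48 (0.47 to 0.50). This value moved with the mix of clusters. With the CM clusters weighted alike in the 2 libraries, 12 of 78 members were called higher, against 17.6% of all genes, and 0 were called lower, against 18.2%. The log2 ratio of the sums was then 0.20, and the share of members called higher was near that of all genes. Within cluster 5, 45 of 78 members were higher, against 21.9% of all genes, at a log2 ratio of 0.36 (0.34 to 0.39). Within cluster 6, 5 of 77 were higher, against 17.7% of all genes, at a log2 ratio of 0.12 (0.10 to 0.13). Those 5 were Ndufa2, Ndufv1, Sdhd, Cox7c and Atp5j, named here after their values were seen. Within cluster 18, with 41 and 45 nuclei, 46 of 55 were higher, against 40.6% of all genes, at a log2 ratio of 0.81 (0.73 to 0.89). With 1 library per group, a larger share of cluster 6 after treatment and one from the preparation of the nuclei cannot be told apart.

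In mural cells, 45 of 73 members were higher in the PD-1 inhibitor group, against 21% of all genes, and 1 was lower, against 22.1%, and the sums of 8509 and 11794 CPM gave a log2 ratio of 0.47 (0.42 to 0.52). In mesothelial cells, which line the outer surface of the heart, 16 of 76 were higher, against 17% of all genes, and 6 were lower, against 18.4%. Their sums were 9706 and 10022 CPM, a log2 ratio of 0.05 (0.00 to 0.09). The share of members higher in mesothelial cells was thus near that of all genes. The same direction ran through most single members. In all 6 of these cell types, 71 members had enough UMIs. Of these, 32 had a log2 ratio above 0 in every type and 32 in 5 types. No such count is given for all genes. The shortest genes of all kinds, described below, also had a median above 0 in each type, from 0.05 in mesothelial cells to 0.27 in CMs. Ndufs4 alone of these members was below 0 in all 6 types, from -0.32 in Fibroblasts to -0.02 in CMs. Its direction was not the same in every cluster of a type. In ECs it was -0.73 (-1.05 to -0.41) in cluster 0, the largest, and -0.14 (-0.52 to 0.23) in cluster 3. In the smaller EC clusters it was 1.03 (0.36 to 1.78) in cluster 10 and 0.40 (-0.37 to 1.17) in cluster 12. In Fibroblasts it was -0.35 (-0.73 to 0.02) in cluster 1 and -0.23 (-0.64 to 0.19) in cluster 4. In the smaller Fibroblast clusters it was 0.17 (-0.35 to 0.69) in cluster 9 and -1.89 (-3.42 to -0.72) in cluster 15. These cell types share their 2 libraries and are not independent of each other. In the remaining types, which had fewer nuclei and UMIs, the members' sums had log2 ratios of -0.02 (-0.10 to 0.07) in T cells, 0.35 (0.21 to 0.48) in B cells, 0.29 (0.17 to 0.41) in adipocytes and 0.77 (0.49 to 1.05) in glial cells. T cells thus had the lowest ratio of all 10 types, at 10632 CPM in the Control group and 10503 CPM in the PD-1 inhibitor group. Its interval overlapped that of mesothelial cells.

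**Figure D3:**
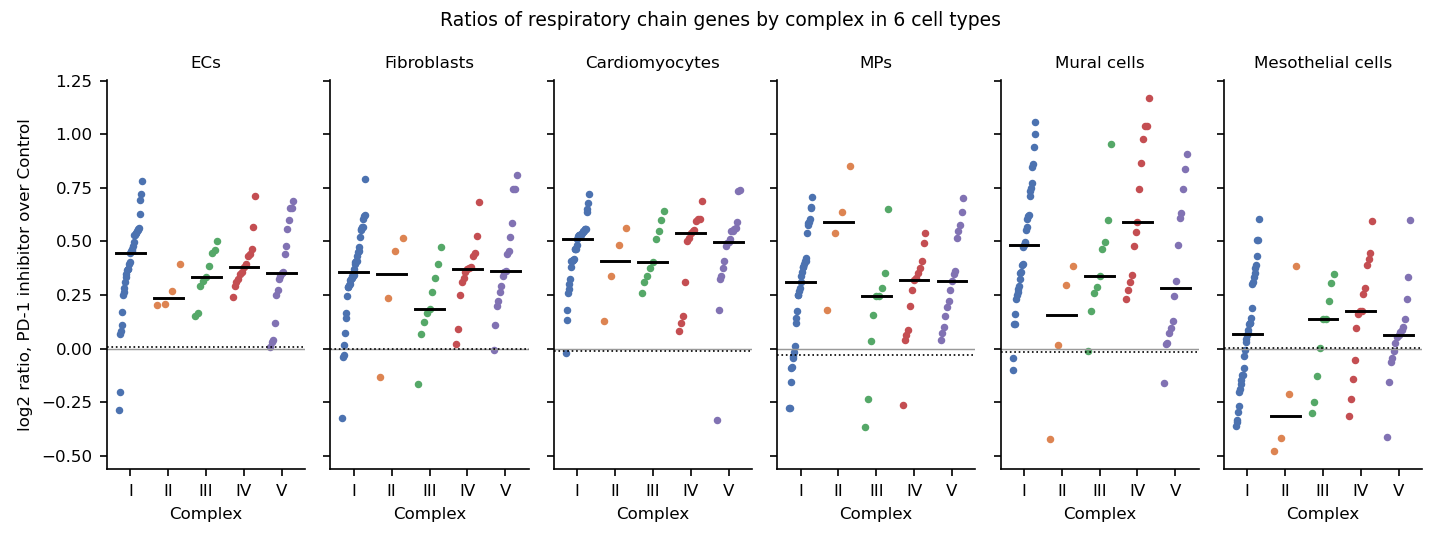
Log2 ratio of the PD-1 inhibitor group over the Control group (vertical axis) for each member with at least 50 UMIs of the cell type, in 1 panel per cell type and 1 column per complex. Black bars are the medians of a complex, and the dotted line is the median of all genes. Medians lie above the dotted line for every complex in ECs, Fibroblasts, CMs, MPs and mural cells, and near it in mesothelial cells except complex II, whose median lies below.

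CM RNA in the other types was followed with Mb, the gene of myoglobin, an oxygen-binding protein of heart and skeletal muscle. Mb stood at 463 and 525 CPM in ECs and at 549 and 832 CPM in mural cells, but at 435 and 322 CPM in mesothelial cells. CMs held 10.5 member UMIs per Mb UMI in the Control group and 11.0 in the PD-1 inhibitor group, and ECs held 18.9 and 21.7. If each Mb UMI in ECs came with as many member UMIs as in the CMs of the same library, these would make 55.4% of the member UMIs of ECs in the Control group and 50.8% in the PD-1 inhibitor group. The remainder in ECs was 3907 and 5615 CPM, a log2 ratio of 0.52, and the remainder in Fibroblasts and MPs gave 0.41 and 0.63. In mural cells the remainder was 2745 and 2619 CPM, a log2 ratio of -0.07, so the higher level in the PD-1 inhibitor group did not hold in mural cells after this step. It did hold when the sum of 12 CM transcripts, Mb among them, took the place of Mb: the remainder in mural cells was then 5175 and 6572 CPM, a log2 ratio of 0.34. In mesothelial cells the remainder by Mb was 5135 and 6473 CPM, a log2 ratio of 0.33. By the 12 CM transcripts it was 7467 and 7565 CPM there, a log2 ratio of 0.02, so the higher remainder rested on Mb. By the 12 transcripts the log2 ratio was 0.36 in ECs, 0.33 in Fibroblasts and 0.24 in MPs. These remainders were computed after the values were seen, and whether CM RNA reaches other nuclei in these proportions was not tested.

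Complex I, the NADH dehydrogenase, is the largest of the complexes. In ECs 25 of its 35 members with enough UMIs were higher in the PD-1 inhibitor group, against 18.7% of all genes. Its sum there had a log2 ratio of 0.40. In CMs 29 of 35 were higher, against 22.1% of all genes, at 0.47. The CM counts here and for the other complexes are over all CM clusters. With the clusters weighted alike, 12 of 78 members were higher, against 17.6% of all genes. Ndufa4, which was named for complex I and later found in complex IV, had the most UMIs of the Nduf genes in CMs, at 1637 CPM in the Control group and 2382 CPM in the PD-1 inhibitor group, a log2 ratio of 0.54 (0.48 to 0.60). In ECs, Ndufc1, an accessory subunit, went from 76.9 to 132 CPM, a log2 ratio of 0.78 (0.54 to 1.03), and Ndufa7 from 107 to 177 CPM, at 0.72 (0.52 to 0.93). In CMs the highest ratios were those of Ndufa2, at 207 and 341 CPM and 0.72 (0.55 to 0.89), and Ndufa5, at 529 and 846 CPM and 0.68 (0.57 to 0.78). These are small accessory subunits. At the other end stood Ndufs1, the large iron-sulfur core subunit, at 0.07 (-0.16 to 0.30) in ECs and 0.13 (0.00 to 0.26) in CMs. Ndufs4, needed for a stable matrix arm, had 139 and 114 CPM in ECs, a log2 ratio of -0.28 (-0.50 to -0.07), and 307 and 303 CPM in CMs, at -0.02 (-0.18 to 0.14).

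Complex II, succinate dehydrogenase, also belongs to the citrate cycle. It was the complex with the lowest ratio in ECs and over all CM clusters, at 0.27 (0.16 to 0.38) and 0.39 (0.32 to 0.45). In CMs this rank did not hold under every alternative processing described below. The lowest CM ratio under any alternative was 0.16 for complex II. For complexes I, III, IV and V it was 0.11, 0.04, 0.14 and 0.15. In ECs 1 of 4 members was higher, against 18.7% of all genes, and in CMs 3 of 4, against 22.1%. In CMs, Sdha had 519 and 656 CPM, Sdhb 617 and 862 CPM, Sdhc, a membrane anchor, 282 and 309 CPM, and Sdhd, the other anchor, 170 and 252 CPM. Their log2 ratios there were 0.34, 0.48, 0.13 and 0.56, so Sdhc alone was not called higher. In ECs only Sdhb was called higher, from 124 to 163 CPM, at 0.40 (0.20 to 0.60). In MPs the sum of complex II gave 0.51 (0.32 to 0.69), while in mesothelial cells it was 502 CPM in the Control group and 416 CPM in the PD-1 inhibitor group, at -0.27 (-0.47 to -0.07).

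Complex III, the cytochrome bc1 complex, had a log2 ratio of 0.35 in ECs and of 0.45 in CMs. In ECs 5 of 9 members were higher, against 18.7% of all genes, and in CMs 7 of 9, against 22.1%. Uqcr11, a small accessory subunit with the most UMIs of this complex in CMs over both libraries, stood at 154 and 218 CPM in ECs, a log2 ratio of 0.50 (0.33 to 0.68), and at 687 and 1040 CPM in CMs, at 0.60 (0.50 to 0.69). Uqcrh, the hinge protein, stood at 446 and 697 CPM in CMs, at 0.64 (0.53 to 0.76). Uqcrfs1 stood at 97.0 and 133 CPM in ECs, at 0.46 (0.24 to 0.68). The low end was held by Uqcrc2, a core protein, at 0.15 (-0.06 to 0.37) in ECs and 0.26 (0.14 to 0.38) in CMs, and by Cyc1, cytochrome c1, at 0.16 (-0.05 to 0.37) and 0.31 (0.21 to 0.42). Neither was called higher in either cell type.

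Complex IV, cytochrome c oxidase, had log2 ratios of 0.42 in ECs and of 0.52 in CMs. In ECs 10 of 13 members were higher, against 18.7% of all genes, and in CMs 9 of 13, against 22.1%. In CMs, Cox6b1, which faces the intermembrane space, stood at 559 and 899 CPM, at 0.69 (0.58 to 0.79). In ECs, Cox7b, a small membrane subunit, stood at 108 and 127 CPM, at 0.24 (0.02 to 0.46). Cox4i1, the common form of subunit 4, was listed at 0 in both libraries and is not described. In mural cells complex IV had a log2 ratio of 0.74 (0.62 to 0.86), where Mb also had 549 CPM in the Control group and 832 CPM in the PD-1 inhibitor group.

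Complex V had log2 ratios of 0.35 in ECs, 0.50 over all CM clusters and 0.15 in CM cluster 6 alone. In ECs 11 of 17 members were higher, against 18.7% of all genes, and in CMs 15 of 17, against 22.1%. Atp5b, the catalytic beta subunit and the member of complex V with the most UMIs in CMs, stood at 1679 and 2366 CPM there, at 0.49 (0.43 to 0.56), and at 385 and 465 CPM in ECs, at 0.27 (0.16 to 0.39). Atp5j, coupling factor 6 of the stalk, stood at 141 and 227 CPM in ECs, at 0.69 (0.51 to 0.87), and at 571 and 950 CPM in CMs, at 0.73 (0.63 to 0.83). Atp5h, another stalk subunit, stood at 568 and 947 CPM in CMs, at 0.74 (0.64 to 0.84). Atp5j2, a membrane subunit, stood at 132 and 208 CPM in ECs, at 0.66 (0.47 to 0.84). In contrast, Atp5a1, the alpha subunit that forms the catalytic head with Atp5b, stood at 278 and 280 CPM in ECs, at 0.01 (-0.13 to 0.15), and at 0.37 (0.31 to 0.44) in CMs. Atp5l, of the membrane part, stood at 0.03 (-0.36 to 0.41) in ECs and 0.18 (-0.04 to 0.40) in CMs, and Atp5d, of the central stalk, at 0.32 (0.19 to 0.45) in CMs.

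Members are short genes, and short genes of all kinds were higher in the PD-1 inhibitor group. The median genomic span of the members was 7.19 kb, against 25.8 kb for all genes with at least 50 UMIs. In ECs the shortest 20% of genes had a median log2 ratio of 0.22 and the longest 20% -0.17, and in CMs these were 0.27 and -0.28. The 55 members in the shortest 20% had a median of 0.41 in ECs, and the 56 in CMs a median of 0.53. Ndufs4, which spans 100 kb, was the member in the longest 20% in both types. Ribosomal protein genes, which encode the ribosome of the cytosol, had log2 ratios of 0.56 in ECs, 0.52 in CMs and 0.07 in mesothelial cells. By CM cluster their ratio was 0.44 in cluster 5, 0.14 in cluster 6 and 0.91 in cluster 18. The part of gene length or of RNA from outside the nucleus in the members' ratios was not tested.

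The third question was which tissue forms of complex IV each cell type held. The 3 pairs are Cox6a2 and Cox6a1, Cox7a1 and Cox7a2, and Cox8b and Cox8a, with the heart and muscle form named first. In CMs the heart forms made 79.5% (78.7 to 80.4) of the UMIs of the 6 genes in the Control group and 81.9% (81.2 to 82.6) in the PD-1 inhibitor group. By pair, the share was 87.7% and 91.1% for Cox6a2, 83.6% and 87.2% for Cox8b, and 63.2% and 63.1% for Cox7a1. CMs of the Control group held 3370 UMIs of Cox6a2, 1954 of Cox8b and 1588 of Cox7a1, against 924 of Cox7a2, 472 of Cox6a1 and 384 of Cox8a. Divided by kilobases of exon, these were 2251 CPM of Cox8b, 2055 of Cox6a2 and 1231 of Cox7a1. The forms of other tissues then stood at 406 for Cox7a2, 279 for Cox6a1 and 257 for Cox8a. A UMI counts 1 molecule whatever its length, so the divided values also carry exon length. Heart forms were thus the major forms of all 3 pairs in CMs, and least so for Cox7a1.

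In 2 of the 3 pairs, the heart form had the higher ratio between the libraries in CMs. Cox6a2 had 1397 CPM in the Control group and 2125 CPM in the PD-1 inhibitor group, a log2 ratio of 0.60 (0.54 to 0.67), and Cox6a1 had 196 and 207 CPM, at 0.08 (-0.11 to 0.28). Cox8b had 810 and 1178 CPM, at 0.54 (0.45 to 0.63), and Cox8a 159 and 173 CPM, at 0.12 (-0.09 to 0.33). For Cox7a1 and Cox7a2, at 658 and 963 CPM and at 383 and 562 CPM, the log2 ratios were 0.55 and 0.55. These differences too moved with the clusters. In cluster 5, Cox6a2 had 477 and 737 CPM, at 0.63 (0.49 to 0.77), against 0.02 (-0.26 to 0.30) for Cox6a1, and the heart forms made 71.4% (69.5 to 73.2) and 77.2% (75.4 to 78.9). In cluster 6, Cox6a2 had 3627 and 4036 CPM, at 0.15 (0.08 to 0.23), against -0.10 (-0.38 to 0.18) for Cox6a1, and the shares were 82.6% (81.6 to 83.5) and 83.6% (82.8 to 84.4). The intervals of the 2 libraries did not overlap in cluster 5 and overlapped in cluster 6.

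Outside CMs, ECs had a heart-form share of 48.9% (46.9 to 50.9) in the Control group and 51.5% (49.8 to 53.2) in the PD-1 inhibitor group. The share was 54.3% and 50.6% for Fibroblasts, 63.5% and 64.9% for MPs, 57.4% and 61.1% for mural cells, and 36.9% and 38.6% for mesothelial cells. A UMI of Cox6a2 was found in 13.8% of EC nuclei in the Control group and 23.0% in the PD-1 inhibitor group, against 63.6% and 73.8% of CM nuclei, at median depths of 899 and 951.5 UMIs in ECs and 1404 and 1426.5 in CMs. After each nucleus was thinned to 500 UMIs the shares were 7.33% and 14.2% in ECs and 41.7% and 52.8% in CMs. Set against Mb, the heart forms were close to their frequency in CMs in the Control group. There were 81.8 UMIs of the 3 heart forms per 100 UMIs of Mb in CMs of the Control group, 87.9 in ECs, 94.2 in Fibroblasts, 81.2 in MPs, 71.0 in mural cells and 74.7 in mesothelial cells. In the PD-1 inhibitor group these were 91.5 in CMs, 113 in ECs, 98.3 in Fibroblasts, 101 in MPs, 79.0 in mural cells and 119 in mesothelial cells. In the PD-1 inhibitor group 4 of these 5 types thus stood above CMs and mural cells below. No expression of heart forms in these types is read from their levels, and the part of CM RNA in them was not tested.

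Adipocytes had another ratio. Their nuclei, which carried Ucp1, the uncoupling protein of brown fat, numbered 154 in the Control group and 16 in the PD-1 inhibitor group. In the Control group they held 18.4 UMIs of Cox6a2, 44.8 of Cox7a1 and 65.5 of Cox8b per 100 UMIs of Mb, against 39.9, 18.8 and 23.1 in CMs. In that library Cox7a1 and Cox8b thus exceeded the CM ratio to Mb and Cox6a2 did not, with 16, 39 and 57 UMIs of Cox6a2, Cox7a1 and Cox8b against 87 of Mb. In the PD-1 inhibitor group all 3 exceeded it, Cox6a2 with 71.4 per 100 UMIs of Mb against 45.6 in CMs, but from 10 UMIs against 14 of Mb.

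**Figure D4:**
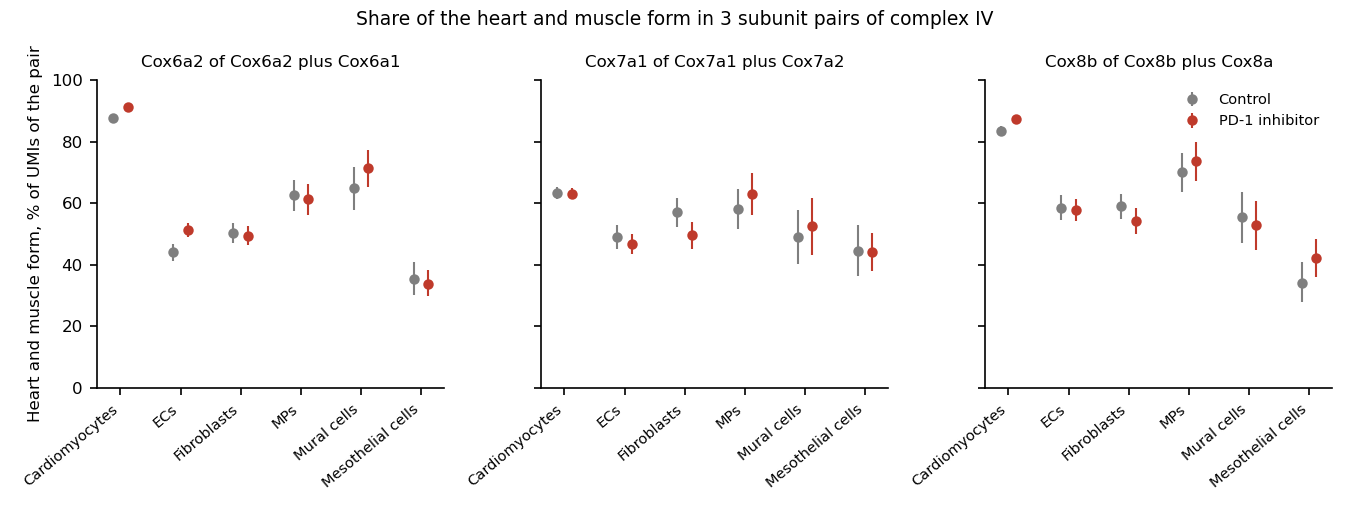
Heart and muscle form as a percentage of the UMIs of its pair (vertical axis, from 0 to 100) in 6 cell types, in 1 panel per pair. Grey is the Control group, red the PD-1 inhibitor group, and bars are 95% Clopper-Pearson intervals. CMs stand highest for Cox6a2 and Cox8b in both libraries, while for Cox7a1 the intervals of CMs and MPs overlap.

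The 250 bases before the start of 5 of these 6 genes are shown because the forms of a pair differ in the tissues that use them. They are from RefSeq on GRCm38.p6, read 5′ to 3′ on the strand of the gene, with each CG dinucleotide in capitals, a marking chosen after the sequences were seen. The first 3 genes are the forms of other tissues and the last 2 are heart forms. Cox6a1 lies on the minus strand at chr5:115348959-115349208, Cox7a2 on the minus strand at chr9:79759854-79760103, Cox8a on the minus strand at chr19:7217617-7217866, Cox7a1 on the plus strand at chr7:30183921-30184170 and Cox8b on the minus strand at chr7:140900447-140900696.
Cox6a1: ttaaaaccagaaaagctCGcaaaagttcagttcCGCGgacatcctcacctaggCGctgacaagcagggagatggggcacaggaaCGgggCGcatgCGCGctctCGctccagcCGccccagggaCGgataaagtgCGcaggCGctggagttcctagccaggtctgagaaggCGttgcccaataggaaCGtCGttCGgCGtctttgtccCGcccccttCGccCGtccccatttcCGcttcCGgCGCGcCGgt
Cox7a2: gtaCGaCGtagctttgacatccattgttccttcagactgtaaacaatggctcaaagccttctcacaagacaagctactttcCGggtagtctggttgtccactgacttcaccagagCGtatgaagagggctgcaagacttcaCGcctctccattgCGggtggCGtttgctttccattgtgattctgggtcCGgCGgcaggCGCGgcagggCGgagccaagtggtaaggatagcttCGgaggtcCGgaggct
Cox8a: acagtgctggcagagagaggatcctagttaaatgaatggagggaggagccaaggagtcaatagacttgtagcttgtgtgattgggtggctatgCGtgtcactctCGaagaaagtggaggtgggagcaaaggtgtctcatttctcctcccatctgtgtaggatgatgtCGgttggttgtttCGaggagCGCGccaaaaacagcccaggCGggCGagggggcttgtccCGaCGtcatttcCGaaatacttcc
Cox7a1: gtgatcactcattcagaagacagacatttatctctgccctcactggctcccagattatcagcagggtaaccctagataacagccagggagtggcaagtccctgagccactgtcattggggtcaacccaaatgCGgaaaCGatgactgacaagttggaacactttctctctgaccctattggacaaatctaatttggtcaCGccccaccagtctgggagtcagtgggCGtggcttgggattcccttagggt
Cox8b: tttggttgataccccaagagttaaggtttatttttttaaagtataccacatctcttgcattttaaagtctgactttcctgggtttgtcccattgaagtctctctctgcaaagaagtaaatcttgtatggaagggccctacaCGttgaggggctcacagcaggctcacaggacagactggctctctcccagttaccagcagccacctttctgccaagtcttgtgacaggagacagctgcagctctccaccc

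Cox6a1 held 26 CG dinucleotides in these bases, Cox7a2 14 and Cox8a 11, while Cox7a1 held 4 and Cox8b 1, and the median of 32851 promoters of this length was 6. The G and C content was 62.8%, 54.8% and 52.8% for the forms of other tissues and 51.2% and 47.2% for the heart forms, against a median of 52.4%. In the 66 members that could be matched, the medians were 14 CG dinucleotides and 56.2%. The motif of NRF1, a factor known for respiratory chain promoters, was found on either strand in 12 of the 66 members (18.2%) and in 3.74% of all promoters. The ETS motif CCGGAAG was found in 11 members (16.7%) and in 6.91% of all promoters, and the motif AAGGTCA of estrogen-related receptors in 5 (7.58%) and in 4.08%. The motif of YY1 was found in 0 members and 1.56% of all promoters, and the motif of MEF2, a muscle factor, in 1 member, Cox5b, and 3.2% of all promoters. Of the 5 genes shown, Cox6a1 held NRF1 motifs at 162 to 153 and at 117 to 108 bases before the start and an ETS motif at 16 to 10 bases, and the other 4 held none of these motifs. The members' promoters held more CG dinucleotides than the median promoter, and promoters of like CG content were not compared. A match describes the letters only.

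Other isoform sets had their own patterns. Subunit c of complex V is made from 3 genes that yield the same mature protein. In CMs of the Control group Atp5g3 held 786 CPM, Atp5g1 753 and Atp5g2 23.2. Divided by kilobases of exon these were 360, 153 and 13.9, so the wider gap between Atp5g3 and Atp5g1 came from exon length. A UMI counts 1 molecule whatever its length. Between the libraries Atp5g1 went from 753 to 1102 CPM, a log2 ratio of 0.55 (0.46 to 0.64), and Atp5g3 from 786 to 1094 CPM, at 0.48 (0.39 to 0.57). Atp5g2 had only 56 and 37 UMIs, or 23.2 and 18.4 CPM, and its log2 ratio of -0.33 (-0.98 to 0.29) was within counting error. Cox7a2l, a relative of Cox7a2 known for joining complexes III and IV in supercomplexes, had 143 and 159 CPM in CMs, at 0.15 (-0.07 to 0.37), and 70.8 and 87.7 CPM in ECs, at 0.31 (0.04 to 0.58).

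A few isoforms were largely counted in 1 cell type. Ndufa4l2, a relative of Ndufa4 known from hypoxic cells and pericytes, had 211 CPM (179 to 249) in mural cells of the Control group and 385 CPM (331 to 444) in the PD-1 inhibitor group, a log2 ratio of 0.86 (0.54 to 1.19). It had 5.03 and 6.56 CPM in ECs, 4.56 and 9.42 CPM in CMs and 22.1 and 38.2 CPM in Fibroblasts. A UMI was found in 16.0% (13.2 to 19.2) and 27.7% (23.4 to 32.2) of mural nuclei, at median depths of 968 and 974 UMIs, against 0.39% and 0.60% of EC nuclei, at 899 and 951.5. Thinned to 500 UMIs, the mural shares were 9.95% and 17.0%. Within the mural cells, cluster 8, with the pericyte genes Kcnj8 and Vtn, held 258 and 459 CPM, and cluster 17, with the smooth muscle genes Myh11 and Cnn1, 40.8 and 46.2 CPM, with 6 and 4 UMIs. The intervals of the libraries did not overlap in mural cells, and Fibroblasts stood next, above ECs and CMs beyond their intervals.

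Cox4i2, a form of subunit 4 known from lung and pericytes, was missed by the symbol rule but followed the same cell type. It had 204 CPM (172 to 241) and 248 CPM (205 to 296) in mural cells, a log2 ratio of 0.28 (-0.09 to 0.64), and 1.34 and 4.15 CPM in ECs. Its shares of nuclei were 16.9% and 18.9% in mural cells and 0.14% and 0.40% in ECs. Cox6b2, known from testis, had 31.6 CPM (20.5 to 46.7) and 48.2 CPM (35.8 to 63.5) in mesothelial cells, from 25 and 50 UMIs, against 4.70 and 4.84 CPM in ECs and 1.24 and 3.47 CPM in CMs. Its log2 ratio in mesothelial cells was 0.59 (-0.11 to 1.36), within counting error. The highest cell type of each gene was thus the same in both libraries, and ECs and CMs did not differ in Cox6b2 beyond their intervals.

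**Figure D5:**
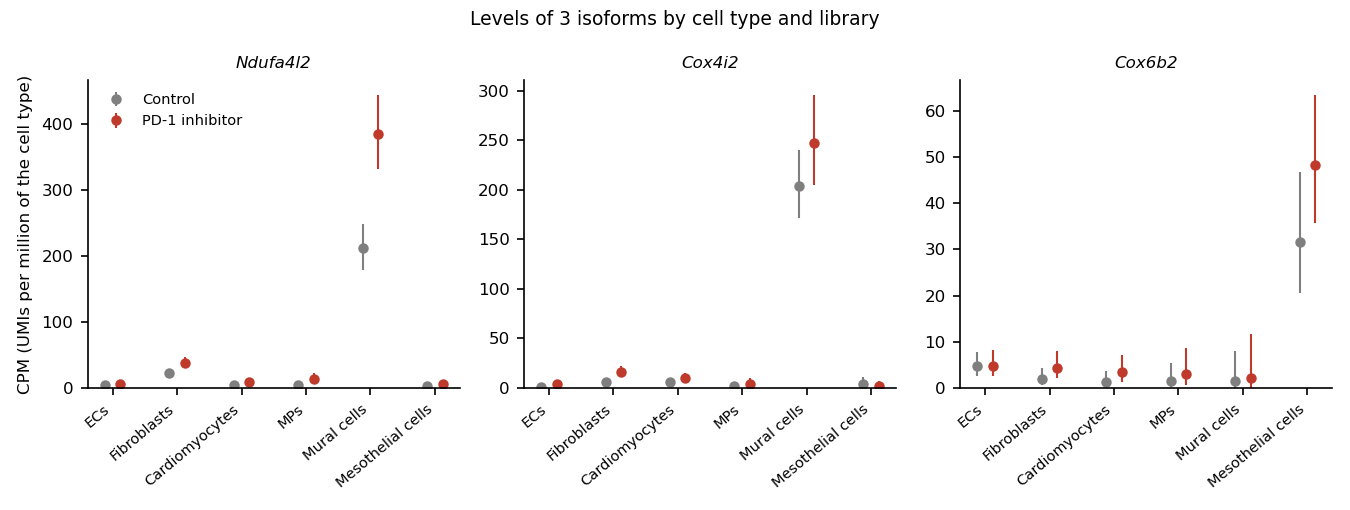
CPM (vertical axis) of Ndufa4l2, Cox4i2 and Cox6b2 in 6 cell types, with the Control group in grey, the PD-1 inhibitor group in red and 95% Poisson intervals as bars. Ndufa4l2 and Cox4i2 stand above 200 CPM in mural cells and at 38.2 CPM or less elsewhere, and Cox6b2 stands highest in mesothelial cells.

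The other genes of the pathway are given by lists, whose genes were chosen with earlier results of these data known. The mitochondrially encoded subunits, of which 8 of 13 had enough UMIs, had a log2 ratio of 0.20 in ECs with 3 of 8 higher, 0.37 in CMs with 5 of 8 higher and -0.54 in mesothelial cells with 7 of 8 lower. Within CMs it was 0.52 in cluster 5 and -0.15 in cluster 6. Assembly factors, which build the complexes, had 15 of 41 genes higher and 3 lower in ECs and 11 of 41 higher and 5 lower in CMs, with log2 ratios of 0.10 and 0.12. Of all genes, 18.7% were higher and 15.5% lower in ECs, and 22.1% were higher and 22.7% lower in CMs, so the count of assembly factors higher in CMs was near that of all genes. Citrate cycle genes had 2 of 14 higher in ECs and 6 of 14 in CMs, with log2 ratios of 0.16 and 0.25. Within CMs the ratio of the citrate cycle genes was 0.08 in cluster 5, 0.06 in cluster 6 and 0.36 in the small cluster 18. Genes of supercomplexes and of the ATP synthase inhibitor had 2 of 4 higher in both types, at 0.38 and 0.35. By CM cluster their ratio was 0.31 in cluster 5, 0.01 in cluster 6 and 0.71 in cluster 18. Ndufab1, the acyl carrier subunit of complex I that the rule missed, had 351 and 534 CPM in CMs, and Cycs, cytochrome c, had 166 and 237 CPM.

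Regulators of the pathway had a sum below that of the Control group in CMs, where 1 of 13 was higher, against 22.1% of all genes, and 6 were lower, against 22.7%, with a log2 ratio of -0.30 (-0.35 to -0.24), against -0.05 (-0.15 to 0.05) in ECs. Esrrg, an estrogen-related receptor that drives respiratory genes in heart, had 641 CPM in the Control group and 392 CPM in the PD-1 inhibitor group, a log2 ratio of -0.71 (-0.84 to -0.58). Ppargc1b, a coactivator of mitochondrial genes, had 229 and 145 CPM, and Ppargc1a, the related coactivator PGC-1 alpha, 1100 and 934 CPM. These too moved with the clusters. Esrrg had 888 and 647 CPM in cluster 5 and 74.9 and 61.8 CPM in cluster 6. Ppargc1b was lower in both, at a log2 ratio of -0.38 (-0.60 to -0.16) in cluster 5 and -0.91 (-1.72 to -0.15) in cluster 6, there from 39 and 24 UMIs. Ppargc1a was not lower in either. It stood at 1503 and 1525 CPM in cluster 5, a log2 ratio of 0.02 (-0.07 to 0.11), and at 158 and 185 CPM in cluster 6, at 0.22 (-0.14 to 0.59). In the small cluster 18, Ppargc1a was lower, at 845 and 229 CPM and -1.86 (-2.73 to -1.10), from 51 and 19 UMIs. The regulators' summed log2 ratio was -0.11 (-0.17 to -0.05) in cluster 5, -0.01 (-0.16 to 0.14) in cluster 6 and -1.04 (-1.47 to -0.61) in cluster 18.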

How the data were processed

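Single-nucleus RNA-seq was made from 1 Control and 1 PD-1 inhibitor library. The authors deposited a filtered matrix of UMI counts, whole numbers per gene and nucleus with no normalization, for each library. The submitters' processing notes name the builds GRCm38 and mm10, and the aligner is not given in the sources used here. Whether introns were counted is not given there either.

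Nuclei with under 200 genes, over 20% mitochondrial UMIs or a Scrublet doublet call were left out. Each nucleus was set to 10000 UMIs before logs were taken. The 2000 most variable genes, capped at 10 SD, were reduced to 30 components, and Leiden clustering was run at resolution 1 on 15 neighbours (Python 3.11.15, numpy 2.4.6, scipy 1.17.1, pandas 2.3.3, scanpy 1.11.5, leidenalg 0.10.2, scikit-learn 1.9.0, matplotlib 3.10.9). The 84 genes that match the symbol rule and 13 mitochondrially encoded genes were kept out of clustering. Clusters were named from at least 3 markers found in 5% of nuclei at 2-fold. UMIs were summed per cell type and library, and log2 ratios were taken with 0.5 UMI added. Intervals are 95%, Poisson for CPM, Clopper-Pearson for shares and conditional binomial for ratios, and cover counting error only. The scripts were tested on simulated data. Named genes were the members of tissue isoform sets, all of complex II, near members that the rule misses and, within each complex, the member with the most UMIs in CMs, those at both ends of the ratio of CMs over ECs, and the 2 highest and 2 lowest ratios between the libraries in ECs and in CMs among members with at least 200 UMIs. Other genes are named where a list's count turned on them.

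The members, lists and tests were chosen with earlier results of these data known. The scaling of genes before clustering, the values for 1 CM cluster alone and the comparisons with Mb and with 12 CM transcripts were added after seeing the data.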

Additional observations from a re-analysis of the deposited data

Results flagged for a closer look

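Complex II and the mitochondrially encoded subunits went opposite ways between the libraries in different cell types. The sum of complex II had a log2 ratio of the PD-1 inhibitor group over the Control group of -0.27 in mesothelial cells and 0.51 in MPs. The sum of the mitochondrially encoded subunits had a log2 ratio of -0.54 in mesothelial cells, at 23386 and 16140 CPM, and of 0.51 in mural cells, at 6435 and 9185 CPM. With 1 library per group the difference between cell types was not tested.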

How the results depend on the processing

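No paired analysis was possible because each group is 1 library, and no replicate could be left out. Alternatives left the direction of the members' log2 ratio between the libraries as it was, except in mural cells, where it was -0.068 after members at the CMs' ratio to Mb were taken off and -0.036 at the ratio of cluster 6, but 0.34 at the CMs' ratio to 12 CM transcripts. In ECs the ratio was 0.41 with at most 5% mitochondrial UMIs, 0.43 with nuclei thinned to 500 UMIs, 0.42 as a mean over nuclei, 0.41 with equal cluster weights, and 0.52 and 0.46 after taking off members by Mb. In Fibroblasts it was 0.41 after that step. In MPs it was 0.34 with at most 5% mitochondrial UMIs, 0.41 with doublets kept, 0.36 thinned, 0.36 as a mean over nuclei, 0.63 and 0.47 after taking off members by Mb and 0.24 by the 12 transcripts. In CMs it was 0.50 with at least 500 genes, with doublets kept or without mitochondrial and ribosomal genes in the total, 0.36 thinned, 0.35 as a mean over nuclei, 0.51 as a median over members, 0.20 with equal cluster weights, 0.47 without cluster 6 and 0.12 in cluster 6 alone, and 12 members were higher under equal weights, against 17.6% of all genes, and 5 in cluster 6 alone, against 17.7%. Atp5d, called higher in CMs, had a log2 ratio of -0.00097 in cluster 6 alone. For 64 single genes, complexes and other secondary ratios, 747 of 764 alternative values had the direction first given.

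The log2 ratio of CMs over ECs in the Control group was 2.09 with at least 500 genes, 0.87 with at most 5% mitochondrial UMIs, 2.01 with doublets kept, 2.11 with members used in clustering, 2.24 thinned, 2.10 with the other total, 2.24 as a mean over nuclei, 0.93 without cluster 6 and 3.30 in it alone. In the PD-1 inhibitor group it was 2.21, 0.95, 2.12 and 2.19 under the first 4 of these, 2.22 with the other total, 1.02 without cluster 6 and 3.04 in it alone. The heart forms' share in CMs was 70.5% and 76.9% with at most 5% mitochondrial UMIs, 71.9% and 76.8% without cluster 6, 82.6% and 83.6% in it alone, and 81.2% in the Control group thinned. In ECs of the PD-1 inhibitor group it was 49.1% with at least 500 genes and 54.1% thinned. The cause of these shifts was not tested, beyond the clusters and nuclei each setting leaves out.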
